A study of Camellia japonica and Camellia azalea with 81 samples.

Results

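The genes described here are 150 gene IDs whose transcript level in leaves was higher in spring than in any other season in 2 evergreen camellias, Camellia japonica and Camellia azalea. They were taken from 41952 IDs listed for both species. For each ID and species a score was formed on the log2(TPM + 1) scale, where TPM are the deposited transcript abundances, scaled to a fixed total in each library: the mean of the Mar, Apr and May libraries minus the highest of the means of winter (Dec to Feb), summer (Jun to Aug) and autumn (Sep to Nov). IDs had to reach a spring mean of 5 TPM in both species, which 14237 did, and 1017 of these had a score above 0 in both. The 150 with the highest smaller score of the 2 species were taken. The members were thus chosen by their season means in leaves, so a higher level in spring is not a finding. It is given below as a description, with no test.

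Camellias are evergreen shrubs of the tea family, and new shoots break bud and expand their leaves mainly in spring, in the growth known as the spring flush. Young expanding leaves differ from mature ones in cell division, in the building of cell walls and of the photosynthetic apparatus, and in the phenolic compounds that defend soft tissue. C. japonica is known for flowering in winter and spring, and C. azalea for flowering mainly in summer.

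The series holds 81 RNA sequencing libraries. Young leaves, as the labels call the tissue, gave 3 libraries in each of 12 months in each species, and flower buds of C. japonica gave 3 libraries for each of FB-1, FB-2 and FB-3. The sources used here give no cultivar, site or bud stage and do not say from which plants the 3 libraries of a label were taken, so every p-value measures only the spread between these libraries, which may be technical. The series compared the 2 species through the year. Libraries are named below by their label and replicate number. In C. japonica that number follows the order of deposit and only names a library.

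The deposited IDs carry no gene names, and the 40 marker names listed for leaf, flower organs, dividing cells, flowering time, flavonoids and cell walls matched 0 IDs. The tissue labels could not be checked against defining genes for that reason, no role is given to any ID, and no sequence is shown. TPM keep no sequencing depth, so the depth behind each value is unknown. Between 18638 and 27805 IDs were listed at 1 TPM or more in a library, and the 10 most abundant IDs took 4.12% to 15.4% of the TPM in C. japonica leaves, 6.54% to 40.4% in C. azalea leaves and 3.49% to 8.52% in buds. In such bulk tissue, fewer cells of a type and less RNA per cell cannot be told apart.

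Some libraries stood apart from their label when each was correlated with all others over all IDs. The C. japonica library labelled Feb leaf 1 correlated best with a flower bud, FB-1 2 (r = 0.935), against a mean of 0.761 with its own label, and the rule left it out. The bud library labelled FB-1 1 correlated best with a leaf library, Dec leaf 2 (r = 0.981, against 0.748 with its own label). Both libraries are used under their deposited labels, and whether these were exchanged was not tested. The main bud counts and the comparisons with FB-1 are also given without FB-1 1. Jan leaf 3 of C. japonica was closest to Aug leaf 2 (r = 0.956, against 0.899), and Jan 1 of C. azalea was closest to Apr 1 (r = 0.968, against 0.947). The closest library carried the same label for 29 of 36 C. azalea libraries, for 6 of 36 C. japonica leaf libraries and for 5 of 9 bud libraries. When Jan leaf 3 and Jan 1 were both left out, the rule took 134 of the 150 members again.

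The members' scores ran from 0.30 to 2.80 (median 0.67) for C. japonica and from 0.30 to 3.07 (median 0.55) for C. azalea. Over the 14237 IDs that passed the level, the medians were -0.16 and -0.28. A score of at least 1, which is a doubling on this scale, was reached in C. japonica by 43 members, in C. azalea by 18 and in both by 12. C. azalea set the smaller score in 95 members and C. japonica in 55. The last member taken, EVM0018383, had a smaller score of 0.3028 and a spring mean of 7.71 TPM for C. japonica and 7.62 TPM for C. azalea. The first ID not taken, EVM0020035, had 0.3025, with 40.5 and 25.998 TPM, so the boundary falls within a run of IDs with nearly equal scores.

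**Figure D1:**
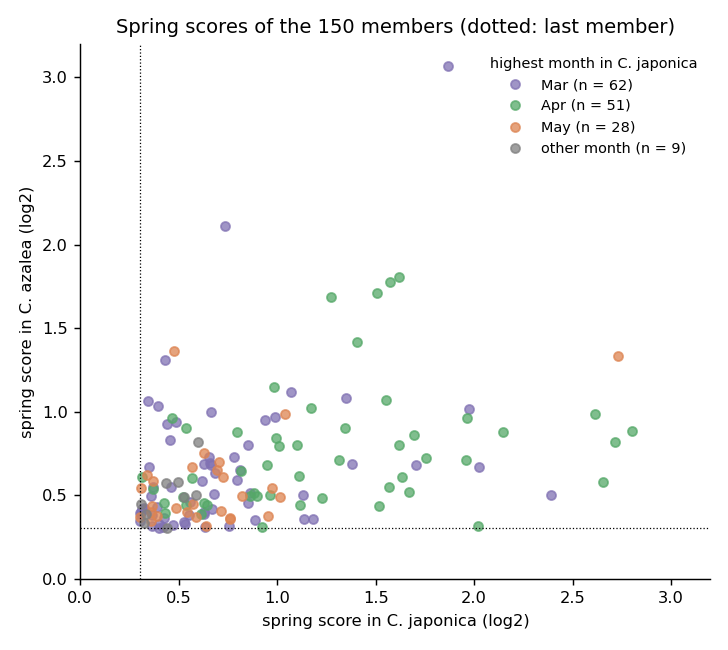
Spring scores of the 150 members, 1 point each and coloured by the highest month in C. japonica, with the C. japonica score on the x axis and the C. azalea score on the y axis, both as differences of log2(TPM + 1) means. Dotted lines mark the smaller score of the last member taken, and most members lie close to them, with 12 at 1 or more on both axes.

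The smallest gap was most often to summer in C. japonica, where it was the next-highest season for 75 members, against winter for 46 and autumn for 29. In C. azalea winter was next-highest for 68, summer for 59 and autumn for 23. The next-highest season was the same in both species for 67 members. Spring exceeded winter, summer and autumn by log2 medians of 1.04, 0.91 and 1.14 for C. japonica and of 0.78, 0.75 and 1.00 for C. azalea. After rescaling the libraries by the median of ratios these medians were 1.07, 0.65 and 1.14 for C. japonica and 0.91, 0.62 and 1.08 for C. azalea. Every member kept a spring mean above each other season in both species, which its choice on these same libraries largely fixes. The rule took 106 members again under both median-of-ratios and quantile scaling.

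The season means did not come from spring libraries that were all high. The 9 spring libraries all lay above every other leaf library in 0 of 150 members in both species, and in 0% of the IDs that passed the level. At least 1 spring library lay above every other leaf library in 115 members in C. japonica and in 113 in C. azalea. The most complete cases were 7 members with 7 of 9 spring libraries above all others in C. japonica and 2 members with 6 of 9 in C. azalea. The rule favours such cases, and these counts are not given over the IDs that passed the level. A single spring library held most of the summed spring TPM, more than its 8 fellows together, in 8 members in C. japonica and in 0 in C. azalea. Over the IDs that passed the level, the shares were 0.66% and 0.0913%. Within a month, the libraries of a member had a median SD on the log2 scale of 0.76 for C. japonica and 0.58 for C. azalea, against 0.38 and 0.45 over the IDs that passed the level. The rule ranked IDs on these same libraries and can favour those with a wide spread.

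Together the members took 0.749% to 1.41% of the TPM in the 9 C. japonica spring libraries, with a median of 1.20%. The median was 0.5677% in winter (0.346% to 1.09%, n = 8), 0.566% in summer (0.498% to 0.919%, n = 9) and 0.544% in autumn (0.385% to 0.835%, n = 9), so the spring range overlapped that of each other season. In C. azalea they took 0.438% to 1.66% in spring, with a median of 1.16%, against medians of 0.841% in winter (0.132% to 1.08%), 0.482% in summer (0.307% to 0.745%) and 0.468% in autumn (0.296% to 0.577%), with n = 9 each. The C. azalea winter was not uniform: Jan and Feb averaged 9352 and 9152 summed TPM, close to the 8073 ± 3596 of May, while Dec stood at 2057 ± 642 (SD, n = 3 each). The highest months were Apr in both species, at 12230 ± 599 summed TPM for C. japonica and 13946 ± 2205 for C. azalea (SD, n = 3 each). Dec was the lowest month of 121 members in C. azalea, against 30.6% of the IDs that passed the level, and of 43 in C. japonica, against 6.82%. Dec is part of the winter mean that the rule subtracts, so the rule favours a low Dec. In Dec 3 of C. azalea the 10 most abundant IDs took 40.4% of the TPM. The median over the IDs that passed the level was 9.44 TPM there.

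**Figure D2:**
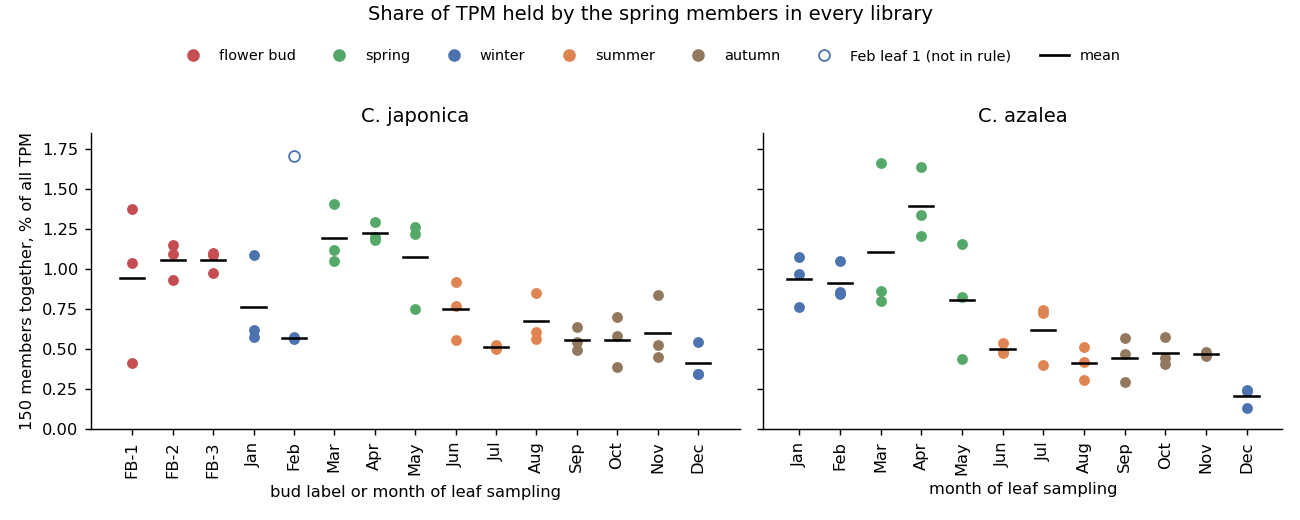
Share of all TPM taken by the 150 members in each C. japonica bud library by label and in each leaf library by month, with 1 point per library and a bar at the mean of each month or label. The mean is highest in Apr in both species, and the open point of Feb leaf 1, which the rule did not use, lies above every other C. japonica library.

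The members did not share 1 peak within spring. In C. japonica the month with the highest mean was Mar for 62 members, Apr for 51 and May for 28, and 9 members had their highest month outside spring. In C. azalea it was Apr for 91, Mar for 23 and May for 4, and 32 members peaked outside spring, 17 of them in Feb and 7 in Jan. The highest month lay in spring for 141 members in C. japonica and 118 in C. azalea, against 30.01% and 17.5% of the IDs that passed the level, which the rule favours by construction. It was the same month in both species for 57 members, 41 of them in Apr. Where it differed, the commonest pairs were Mar in C. japonica with Apr in C. azalea (24 members), May with Apr (23) and Mar with Feb (13). Of the 113 members that peaked in spring in both species, C. azalea peaked later in 26, earlier in 31 and in the same month in 56. Over the 9 months outside spring, the members' month means correlated between the species with a median r of 0.37, against 0.42 over the IDs that passed the level. These correlations rest on 9 points each and are given as a description.

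**Figure D3:**
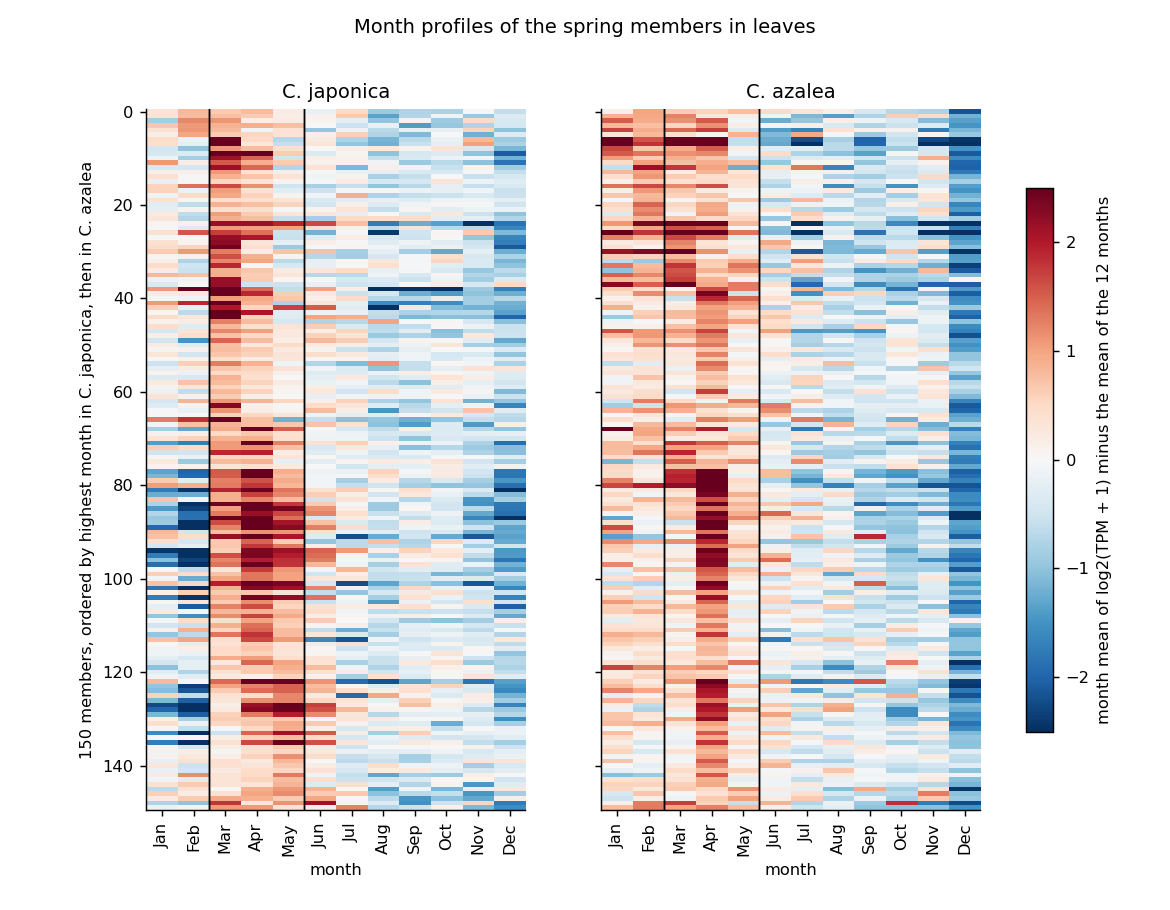
Month means of the 150 members in C. japonica and C. azalea as a heat map, with 1 row per member, ordered by highest month, and colour for the month mean of log2(TPM + 1) minus the mean of the 12 months, capped at the ends of the scale. High values fall in Mar to May in C. japonica and centre on Apr in C. azalea, where Jan and Feb are also raised in many rows and Dec is the lowest column.

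EVM0037495 had the highest smaller score, 1.87 for C. japonica and 3.07 for C. azalea, with the peak in Mar for both. In C. japonica it stood at 172, 33.9 and 181 TPM in Mar, 125, 109 and 76.8 in Apr and 91.3, 80.9 and 80.4 in May. Its other C. japonica leaf libraries lay between 0.313 and 107 TPM, with 107 in Jun 3, so the seasons overlapped. In C. azalea it stood at 404, 999 and 119 TPM in Mar, 265, 247 and 133 in Apr and 13.1, 26.5 and 63.9 in May. The May libraries lay within the range of Jan and Feb, which ran from 10.03 to 157 TPM, and Dec was listed at 0.798, 0 and 0 TPM. The C. azalea spring score of this ID thus rests on Mar and Apr.

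EVM0012256, the second by smaller score (1.62 for C. japonica, 1.81 for C. azalea), had its peak in Apr for both species. In C. japonica it had 7.50, 1.38 and 116 TPM in Mar, 64.7, 74.7 and 4.49 in Apr and 12.5, 11.4 and 2.88 in May. Within Mar and within Apr, libraries of the same label were therefore far apart. In C. azalea it had 15.9, 35.1 and 6.94 TPM in Mar, 36.5, 75.7 and 30.2 in Apr and 3.19, 8.27 and 2.88 in May, with all 3 Apr libraries above those of Jun to Dec. The third by smaller score, EVM0004605, followed it closely, with 6.16, 1.15 and 99.2 TPM in Mar and 54.0, 63.4 and 4.43 in Apr in C. japonica, and 32.1, 69.9 and 29.8 in Apr in C. azalea.

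EVM0025237 was the other leading member with a Mar peak in both species. It had 61.2, 34.4 and 97.6 TPM in the Mar leaves of C. japonica and 6.69, 12.7 and 9.79 TPM in those of C. azalea. Its C. japonica Apr libraries, at 75.3, 68.8 and 36.7 TPM, overlapped those of Mar. EVM0008915 was the only member whose highest month was May in both species. Its May libraries agreed closely in C. japonica, at 127, 125 and 131 TPM, against 23.5, 83.8 and 103 TPM in C. azalea. In C. japonica, Jun reached 127 and 145 TPM in 2 of its 3 libraries, so May did not stand clear of it.

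The members with the highest spring levels were not those with the largest scores. EVM0003168 had 592, 1057 and 1014 TPM in Mar, 1764, 1696 and 2352 in Apr and 462, 457 and 429 in May in C. azalea, where the 3 Apr libraries lay above all its other libraries. In C. japonica its spring libraries spread from 900.1 to 3724 TPM and libraries of Aug and Nov reached 4388 and 3962 TPM, so no spring library stood clear. EVM0021696, at position 147 by smaller score, had a median of 689.7 TPM over the 9 spring libraries in C. japonica and of 682 TPM in C. azalea. Over all members, the spring mean ran from 6.02 to 2070 TPM in C. japonica, with a median of 31.9 TPM, and from 5.02 to 1924 TPM in C. azalea, with a median of 20.2 TPM. The tables of the species were normalized separately, so these levels are not compared between them.

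Differences among Mar, Apr and May were not part of the rule, and they were tested with limma on log2(TPM + 1) across all IDs, and a member was called where the adjusted p lay below 0.05 and the log2 difference reached 1 in size. The rule fixes no direction for them. It does favour members with 1 very high spring month or library, so the size and number of the calls are not independent of it. Every comparison within a species shares libraries with the next, and their values are set side by side without a test of overlap.

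In C. azalea, members were called both for Apr minus Mar and for May minus Apr. In Mar 1, Mar 3 and May 1 the 10 most abundant IDs took 20.6%, 21.6% and 22.5% of the TPM. The median over the IDs that passed the level was 12.6, 12.6 and 10.2 TPM there, against 20.4 to 25.6 TPM in the Apr libraries. Against Mar, 28 members were called higher in Apr and 1 lower, or 29 of 150, where 3.95% of all tested IDs were called, 3.23% higher and 0.727% lower. The median difference of Apr minus Mar was 0.56 over the members and 0.36 over all IDs. Against Apr, 39 members were called lower in May and 0 higher, where 3.38% of all IDs were called, 2.99% lower and 0.386% higher, and the median difference of May minus Apr was -0.81 over the members and -0.34 over all IDs. Part of this moved with the scale of whole libraries. After median-of-ratios scaling, which set the median of all IDs to 0.00, the Apr minus Mar calls were 18 higher and 5 lower, with a median of 0.10 over the members, and the May minus Apr calls were 2 higher and 30 lower, with a median of -0.37. Under that scaling 3.7% of all IDs were called for Apr minus Mar (1.68% higher and 2.02% lower) and 2.76% for May minus Apr (1.23% higher and 1.54% lower).

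The number of calls depended on single libraries. For Apr minus Mar it was 14 without Mar 3 (where 1.76% of all IDs were called), 16 without Mar 1 (1.8%), 11 without Apr 2 (1.23%) and 19 without Apr 3 (2.23%). It was 43 without Mar 2, where the calls over all IDs went up further, to 4376. For May minus Apr it was 17 without May 1 (0.935%) and 21 without Apr 2 (1.44%).

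EVM0009960 rose most in Apr against Mar in C. azalea. It had 18.9, 30.8 and 16.5 TPM in Apr, against 0.136, 2.11 and 2.12 TPM in Mar, and the months did not overlap. The log2 difference was 3.32 ± 0.50 (SE; limma adjusted p = 0.00017), and the call held without any single Mar or Apr library. It averaged 22.03 ± 7.65 TPM in Apr and 1.45 ± 1.14 TPM in Mar (SD, n = 3 each).

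EVM0026399 had 50.0, 107 and 105 TPM in Apr, against 9.92, 9.55 and 12.8 TPM in Mar, again with no overlap. Its difference was 2.84 ± 0.79 (SE; limma adjusted p = 0.035). That call was lost without Mar 1 (limma adjusted p = 0.11), Mar 3 (0.088), Apr 1 (0.052), Apr 2 (0.15) or Apr 3 (0.11), and under either rescaling (0.063 with median of ratios and 0.051 with quantiles). EVM0014305 was the single member called lower. It had 17.9, 9.71 and 13.5 TPM in Apr, against 41.9, 92.4 and 30.9 TPM in Mar (log2 difference -1.82 ± 0.45, limma adjusted p = 0.017), and the call was lost without Apr 2 (0.12) or Apr 3 (0.052).

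The largest drops in May against Apr in C. azalea were in EVM0009757 and EVM0019384. EVM0009757 had 5.03, 5.19 and 17.8 TPM in May, against 276, 122 and 226 TPM in Apr. It fell by 4.48 on the log2 scale, with an SE of 0.92 (limma adjusted p = 0.0040). EVM0019384 had 2.67, 1.80 and 8.62 TPM in May, against 117, 53.9 and 92.3 TPM in Apr, and fell by 4.19 ± 0.85 (SE; limma adjusted p = 0.0037). Both were well apart between the months in every library, and both calls held without any single library of either month. Neither was highest in spring libraries alone: Jan 2 of C. azalea had 1773 TPM of EVM0009757 and 811 TPM of EVM0019384.

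May against Mar gave fewer calls in C. azalea, with 1 member higher and 9 lower, where 1.44% of all IDs were called, 0.451% higher and 0.989% lower. The median difference was -0.27 over the members and 0.01 over all IDs. Under median-of-ratios scaling 1 was higher and 16 lower, where 3.58% of all IDs were called, 1.45% higher and 2.12% lower. The count was 4 without Mar 2 (where 0.735% of all IDs were called) or May 1 (0.972%), 5 without May 2 (0.539%) and 6 without Mar 1 (0.786%). EVM0037495 fell, with 13.1, 26.5 and 63.9 TPM in May, against 404, 999 and 119 TPM in Mar (log2 difference -3.64 ± 0.74, limma adjusted p = 0.0081), and the call was lost without Mar 2 (0.070) or May 1 (0.057). EVM0009757 averaged 9.33 ± 7.32 TPM in May and 116 ± 16.97 TPM in Mar (SD, n = 3 each). The log2 difference was -3.71 ± 0.92 (SE; limma adjusted p = 0.033), and the call was lost without Mar 1 (0.079), Mar 2 (0.091), Mar 3 (0.081), May 1 (0.11) or May 2 (0.15).

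EVM0014576 was the single member called higher in May than in Mar in C. azalea. It had 10.9, 25.4 and 40.8 TPM in May, against 2.90, 7.86 and 5.27 TPM in Mar, with no overlap (log2 difference 1.98 ± 0.47, limma adjusted p = 0.025). The call was lost without Mar 1 (0.14), Mar 3 (0.056), May 2 (0.11) or May 3 (0.14). Its Apr libraries, at 36.4, 38.1 and 21.997 TPM, overlapped those of May.

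In C. japonica neither step between neighbouring spring months gave a call. By correlation over all IDs, Mar 1 and Mar 2 were closest to Jan 2, Mar 3 to Apr 1 and Apr 3 to May 1. May 1 and May 2 were closest to Apr 3, and May 3 to Jun 1. Libraries of 1 month were thus often closer to another month, and the call counts are not compared between the species. For Apr minus Mar, 0 members were called, where 0.0139% of all IDs were called, and 21 members (14%) and 5.38% of all IDs had an unadjusted p below 0.05 in limma. The median difference was 0.01 over the members and -0.15 over all IDs. For May minus Apr, 0 members were called, where 0.00348% of all IDs were called, and 11 members (7.33%) and 3.2% of all IDs had an unadjusted p below 0.05. The median was -0.33, against -0.07 over all IDs, and May was lower in 114 members, higher in 35 and level in 1 that was listed at 0 TPM in both months. Without Mar 3 the Apr minus Mar count was 5, where 0.21% of all IDs were called, and without Apr 3 the May minus Apr count was 6, where 0.498% were.

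For May minus Mar in C. japonica, 1 member was called higher and 8 lower, or 9 of 150, where 1.51% of all IDs were called, 0.358% higher and 1.16% lower. The median difference was -0.30 over the members and -0.24 over all IDs. The count fell to 1 without Mar 2 (where 0.0801% of all IDs were called), May 1 (0.153%) or May 2 (0.16%) and to 3 without Mar 1 (0.355%). The calls over all IDs thus fell too. The count was 0 when only the spring libraries were fitted. It was 2 with Feb leaf 1 kept in the fit and 14 with Jan leaf 3 left out, a setting chosen after seeing the data.

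The single member called higher in May was EVM0015327. It had 48.5, 66.0 and 35.7 TPM in May, against 3.12, 3.00 and 31.2 TPM in Mar (log2 difference 2.61 ± 0.55, limma adjusted p = 0.018). All May libraries lay above all Mar libraries, with Mar 3 close to May 3. The call was lost without Mar 1 (0.096), Mar 2 (0.10), May 1 (0.084) or May 2 (0.11), and with Feb leaf 1 kept (0.11).

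Of the 8 members called lower in May, EVM0013729 and EVM0023325 had the largest differences. EVM0013729 was listed at 0 TPM in all 3 May libraries, against 34.4, 35.4 and 11.5 TPM in Mar (limma adjusted p = 0.0031), and this call held without any single library of the 2 months. A value of 0 can be a failed estimate, so no fold is given for it. EVM0023325 had 0.885, 0.241 and 3.50 TPM in May, against 71.2, 82.4 and 19.8 TPM in Mar (log2 difference -4.51 ± 0.94, limma adjusted p = 0.017). Its call was lost without Mar 1 (0.072), Mar 2 (0.084), May 1 (0.088) or May 2 (0.11). Neither was confined to libraries labelled as spring leaves: Jan 2 of C. japonica had 24.8 TPM of EVM0013729 and 44.01 TPM of EVM0023325. Over all IDs, however, Jan 2 was closest to Mar 1 (r = 0.986, against a mean of 0.938 with its own label).

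**Figure D4:**
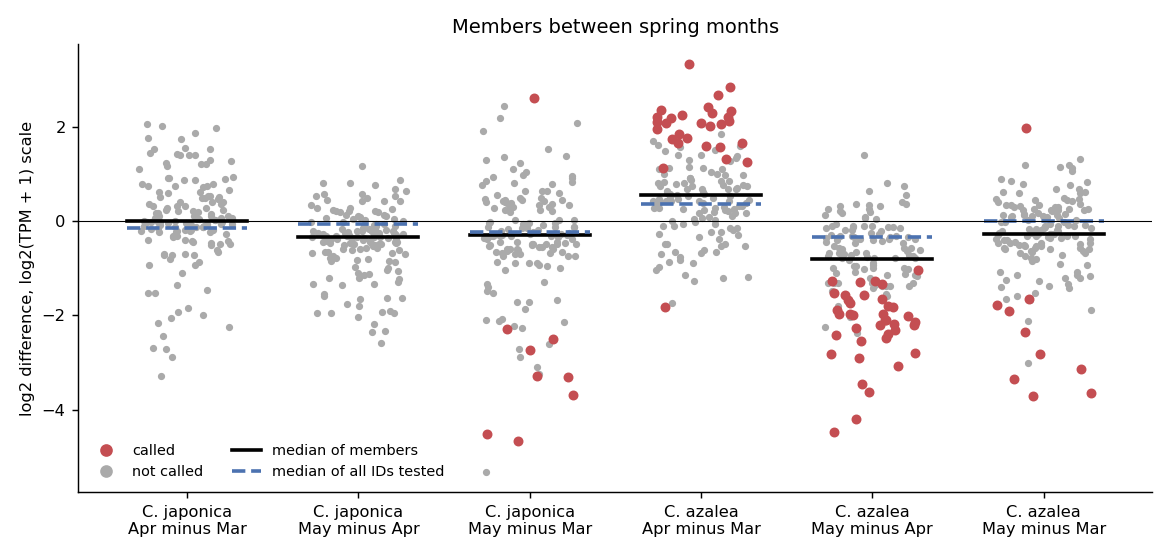
Differences between spring months for the 150 members, as log2(TPM + 1) differences of Apr minus Mar, May minus Apr and May minus Mar in each species, 1 point per member, with called members in red and bars at the median of the members and of all IDs. In C. azalea most points lie above 0 for Apr minus Mar and below 0 for May minus Apr, with 29 and 39 calls, and in C. japonica neither of these steps has a call.

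The change of May minus Mar was also compared between the species in 1 fit, as the C. japonica difference minus the C. azalea difference. It was called for 3 of 150 members, 1 positive and 2 negative, where 0.513% of all IDs were called, 0.192% positive and 0.321% negative, and the median was 0.08 over the members and -0.24 over all IDs. EVM0015327 was the positive one, at 2.68 ± 0.62 (SE; limma adjusted p = 0.023). In C. azalea it averaged 2.69 ± 1.16 TPM in May and 2.79 ± 0.749 TPM in Mar (SD, n = 3 each), beside the C. japonica values above. EVM0023325 was negative, at -5.36 ± 1.29 (SE; limma adjusted p = 0.033), and in C. azalea had 11.9, 30.1 and 71.3 TPM in May, against 11.1, 49.8 and 7.22 TPM in Mar, which overlapped. EVM0013729 was negative too (limma adjusted p = 0.0084), and in C. azalea had 22.9, 68.5 and 148 TPM in May, against 18.4, 91.6 and 8.11 TPM in Mar.

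These calls were sensitive to single libraries. Their number was 1 without Mar 1 (where 0.263% of all IDs were called), Mar 2 (0.199%), May 1 (0.228%) or May 2 (0.282%) of C. japonica. It was 5 without Mar 3 of C. japonica (0.624%) and 0 without Mar 3 (0.302%) or May 3 (0.263%) of C. azalea. EVM0013729 lost its call without Mar 3 (0.054) or May 3 (0.051) of C. azalea. EVM0015327 lost it without Mar 1 (0.13), Mar 2 (0.14), May 1 (0.065) or May 2 (0.099) of C. japonica and without Mar 3 (0.069), May 1 (0.063) or May 3 (0.057) of C. azalea. EVM0023325 lost it without Mar 1 (0.093), Mar 2 (0.12), May 1 (0.096) or May 2 (0.12) of C. japonica and without Mar 1 (0.10), Mar 3 (0.12), May 2 (0.075) or May 3 (0.12) of C. azalea.

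The flower buds of C. japonica gave a readout that the rule did not use. The median over the 9 bud libraries lay above every spring leaf library of C. japonica for 30 members, below every one for 57 and within their range for 63. Over the IDs that passed the level, 34.1% lay above and 27.9% below. The bud mean minus the spring leaf mean had a median of -0.50 on the log2 scale, with quartiles of -1.96 and 0.76, against a median of 0.12 with quartiles of -0.63 and 0.60 over those IDs. Buds lay at least 2 below spring leaves in 35 members and at least 2 above in 19, where 8.92% and 2.53% of those IDs did. All 9 buds reached 1 TPM for 109 members, where 93.7% of those IDs did, and no member was below 1 TPM in all of them. The spring leaf level entered the rule, so a member chosen for a high spring leaf value tends to a lower bud minus leaf difference. Set against leaves of the other seasons, the median bud difference was 0.52, against 0.21 over those IDs. It lay above 0 for 60% of the members and for 60.9% of those IDs. The levels in the other seasons entered the rule too, so a member chosen for low values there tends to a higher difference. Without FB-1 1, a setting chosen after seeing the data, 34 members lay above and 55 below every spring leaf library (35.7% and 28.3% of those IDs), the median difference from spring leaves was -0.45 (0.13 over those IDs), and all 8 buds reached 1 TPM for 126 members (94.4% of those IDs).

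The median bud minus spring leaf difference was 0.21 for members that peaked in Mar in C. japonica (quartiles -0.78 and 1.41), -0.81 for those that peaked in Apr (-2.25 and 0.21) and -1.02 for those that peaked in May (-2.40 and -0.49), so the groups overlapped widely. The IDs that passed the level had medians of 0.29, -0.78 and -0.75 for the same months, so the order of Mar against Apr and May was not particular to the members. Of the 30 members above the spring leaves in buds, 19 peaked in Mar, 8 in Apr and 3 in May. Their summed level in buds was 3197 to 5593 TPM in 8 libraries and 255 TPM in FB-1 1, the library closest to a Dec leaf. In leaves the same 30 summed to 666, 420 and 1721 TPM in Mar, 906, 951 and 395 in Apr and 418, 449 and 354 in May, with 149 to 393 TPM in summer. Mar 3 was thus the leaf library with the most of them among those the rule used.

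In Feb leaf 1 those 30 members summed to 7793 TPM, against 110 to 490 TPM in the 8 winter libraries that the rule used. Over all 150 members, Feb leaf 1 summed to 17069 TPM, against 5729 and 5631 TPM in Feb 2 and Feb 3. It lay above the highest spring library for 46 members and below the lowest for 42, where 44.04% and 27.1% of the IDs that passed the level did. Of the 46, 27 were among the 30 members with bud medians above the spring leaves, and of the 42, 37 were among the 57 below. This overlap is not given over the IDs that passed the level. Feb leaf 1 correlated best with a bud over all IDs, so the overlap is not read as particular to the members. In C. azalea, for which no bud was sampled, the 30 summed to 1268 to 4205 TPM in the libraries of Jan to Apr, 355 to 888 TPM in May and 76.8 to 145 TPM in Dec. Whether flower bud tissue took part in any leaf library was not tested.

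EVM0009757 was among these 30 members. It had 1056 and 509.6 TPM in FB-1 2 and FB-1 3, 449, 529 and 575 TPM in FB-2 and 748, 709 and 267 TPM in FB-3, but 0.453 TPM in FB-1 1. In C. japonica leaves it reached 641 TPM in Feb leaf 1 and 114 TPM in Mar 3, and every other leaf library lay at or below 41.1 TPM. EVM0012256 had 83.3 to 201 TPM in 8 buds and was listed at 0 TPM in FB-1 1, with 168 TPM in Feb leaf 1, against 0 and 0.34 TPM in Feb 2 and Feb 3. EVM0003168 and EVM0009757 had the highest bud medians, at 799.7 and 529 TPM.

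The 57 members below the spring leaves in buds behaved otherwise. They summed to 1663 to 3250 TPM in buds, against 4721 to 7375 TPM in the spring leaves of C. japonica, so the groups did not overlap, as their choice fixes in part. In C. azalea 44 of the 57 peaked in Apr, beside 91 of all 150 members and 15 of the 30 above the spring leaves in buds. Apr thus led in each of these groups, and no share is given over the IDs that passed the level. The 57 summed to 2319, 3930 and 2501 TPM in Mar, 4962, 5225 and 5490 in Apr and 1442, 2350 and 2547 in May. EVM0008915, the May member, belonged to them, with 67.0 TPM in FB-1 1 and 0 to 7.55 TPM in the other 8 buds.

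**Figure D5:**
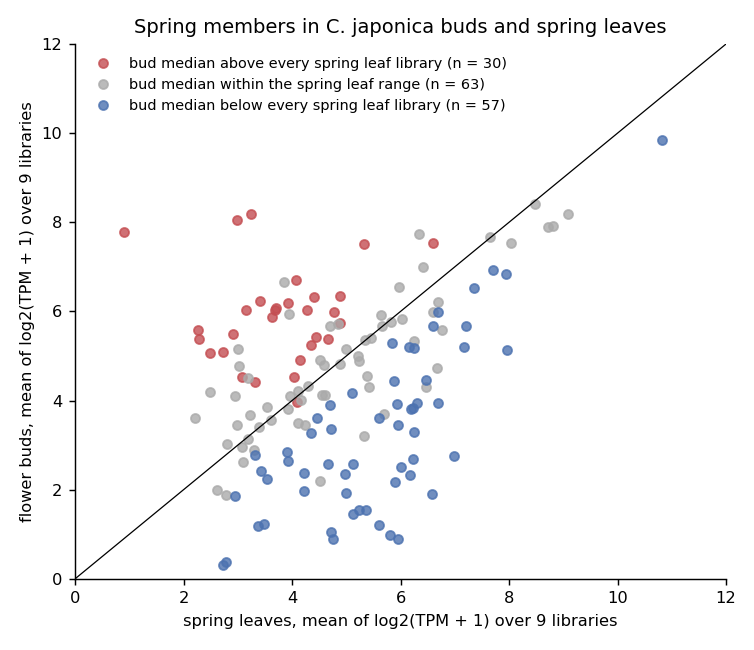
Bud level against spring leaf level of the 150 members in C. japonica, as means of log2(TPM + 1) over 9 libraries each, with the line of equal level. Colours mark members whose bud median lay above all 9 spring leaf libraries (30), within their range (63) or below all (57).

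Differences among the bud labels were tested on 148 members that passed the filter of 1 TPM in 3 buds. For FB-2 minus FB-1, 0 members were called, where 0.623% of all IDs were called, 0.609% higher and 0.0136% lower, and 13 members (8.78%) and 7.22% of all IDs had an unadjusted p below 0.05 in limma. Without FB-1 1 it was 2 higher and 4 lower, where 1.71% of all IDs were called, 0.947% higher and 0.765% lower. Without FB-2 3 it was 1, where 0.301% of all IDs were called. For FB-3 minus FB-2, 0 members were called, where 0% of all IDs were called, and 13 members (8.78%) and 10.2% of all IDs had an unadjusted p below 0.05. For FB-3 minus FB-1, 3 members were called higher and 2 lower, or 5, where 2.02% of all IDs were called, 1.39% higher and 0.626% lower. The median difference of FB-3 minus FB-1 was 0.17 over the members and -0.07 over all IDs.

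Leaving out FB-1 1 changed that comparison most: 9 members were then called higher and 26 lower, where 14.8% of all IDs were called, 4.79% higher and 9.98% lower. The count was 2 without FB-1 3, where 1.1% of all IDs were called. It was 1 without FB-1 2 (0.642%), FB-3 1 (0.388%), FB-3 2 (2.51%) or FB-3 3 (0.599%).

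EVM0013729 had 20.8, 27.1 and 28.4 TPM in FB-3, against 3.89, 1.06 and 2.88 TPM in FB-1, with no overlap (log2 difference 2.95 ± 0.50, limma adjusted p = 0.028). The call was lost without FB-1 2 (0.077), FB-1 3 (0.063), FB-3 1 (0.11), FB-3 2 (0.056) or FB-3 3 (0.10). EVM0039743 had 598, 653 and 565 TPM in FB-3, against 214, 106 and 44.1 TPM in FB-1 (log2 difference 2.58 ± 0.51, limma adjusted p = 0.044). Its call was lost without FB-1 2 (0.10), FB-1 3 (0.059), FB-3 1 (0.17), FB-3 2 (0.081) or FB-3 3 (0.14).

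EVM0005683 fell, with 0.501, 1.22 and 0.474 TPM in FB-3, against 9.06, 15.6 and 11.4 TPM in FB-1 (log2 difference -2.91 ± 0.34, limma adjusted p = 0.0068), and this call held without any single library of the 2 labels. EVM0009119 had 2.09, 0.859 and 0 TPM in FB-3, against 23.3, 30.5 and 6.50 TPM in FB-1 (log2 difference -3.32 ± 0.67, limma adjusted p = 0.048). Its call was lost without FB-1 2 (0.12), FB-3 1 (0.12), FB-3 2 (0.080) or FB-3 3 (0.16). In C. japonica leaves the last 2 IDs were high late in spring: EVM0005683 had 120.1, 169 and 97.2 TPM in May, and EVM0009119 had 244, 272 and 151 TPM.

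Some members moved together more closely than the rest. Over all 11175 pairs of members, the median correlation of log2(TPM + 1) across leaf libraries was 0.37 in C. japonica (35 libraries) and 0.54 in C. azalea (36 libraries), and 13 pairs reached 0.9 in both. All members were chosen for high spring values in these same libraries, so the rule favours positive correlations between them. No such values are given for other IDs, so these are a description only. The closest pairs were chosen after their values were seen. EVM0019384 and EVM0009757 correlated at 0.989 over C. japonica leaves, 0.994 over C. azalea leaves and 0.996 in the 9 buds. EVM0012256 and EVM0004605 correlated at 0.992, 0.987 and 0.998, and EVM0015083 and EVM0041471 at 0.993 and 0.978 in the leaves. The bud correlations include FB-1 1, where EVM0009757 and EVM0012256 lay far below all other buds. They are not given without that library, which may set much of their size. EVM0023325 and EVM0013729, whose May values fell in C. japonica, correlated at 0.925 and 0.958 in the leaves. Libraries of a month share a season and their scale, and the share of reads or sequence between such IDs was not analysed here, so near-identical copies cannot be told apart from separate genes.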

How the data were processed

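The values the authors deposited are TPM (transcript abundances brought to the same total in each library), in 1 table per species with 41982 IDs each. Per the submitters' processing notes, HISAT2 2.1.0 and StringTie 1.3.6 were used. The sources used here do not give their settings, the genome build or the annotation. Because TPM are shares of a total, an ID is listed lower where others take more of it.

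Columns were tied to libraries by the code in each sample title. The season means and scores were computed in Python 3.11.15 without the library labelled Feb leaf 1 of C. japonica. Tests used limma 3.58.1 in R 4.3.3 on log2(TPM + 1), with the variance trended on the mean, 1 mean per month and all leaf months in the fit, or the 9 bud libraries, for IDs that reached 1 TPM in 3 libraries. They were two-sided, with Benjamini-Hochberg adjustment across every ID tested, and the code was tested on simulated data. Differences on this scale understate the change of low values.

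The members, the lists and the rules were chosen with earlier results of these data known. The IDs named are the 2 with the highest smaller score, the last taken and the first not taken, the 2 with the highest spring level, the 2 leading members that peaked in Mar, Apr or May in both species, the 2 with the highest bud median, and up to 2 called in each direction in each comparison with 5 TPM or more in the higher group. No member was below 1 TPM in all buds, so that part of the rule named none. The alternatives were a pseudocount of 0.1, no filter on low values, median-of-ratios and quantile scaling, a fit of the spring libraries alone, Feb leaf 1 kept, a spring level of 1 TPM, the replicate block in C. azalea, and each library left out in turn. Leaving out Jan leaf 3 of C. japonica and Jan 1 of C. azalea, and FB-1 1 from the bud levels, was chosen after seeing the data.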

Additional observations from a re-analysis of the deposited data

Results flagged for a closer look

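In 8 of 56 sets of season values searched, the highest library lay far from the rest by Dixon's criterion. For normally distributed values chance meets it in about 1 in 20 sets. TPM pooled over the months of a season need not follow that distribution, so the 8 are not read against this rate. The 150 members together took 1.09% of the TPM in Jan leaf 2 of C. japonica, the highest of the 8 winter libraries. The same library had the highest winter values of EVM0037495 (65.8 TPM) and of EVM0012256 (1.98 TPM). Over all IDs, Jan leaf 2 was closest to Mar leaf 1 (r = 0.986, against a mean of 0.938 with its own label). In C. azalea, EVM0037495 reached 999 TPM in Mar 2 among the spring libraries. EVM0012256 reached 75.7 TPM in Apr 2 among the spring libraries of C. azalea, 21.8 TPM in Jan 1 among those of winter, 18.5 TPM in Jun 3 among those of summer and 2.80 TPM in Nov 2 among those of autumn.

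The change of May minus Mar differed between the species for 3 members by limma's test of that difference, C. japonica minus C. azalea on the log2 scale. It was 2.68 for EVM0015327, -5.36 for EVM0023325 and -5.96 for EVM0013729. The last is a fitted value that depends on the pseudocount, since EVM0013729 was listed at 0 TPM in every May library of C. japonica.

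The library labelled Feb leaf 1, which the rule did not use, held 17069 summed TPM of the 150 members. Its closest library was a flower bud, and the cause of its level was not tested.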

How the results depend on the processing

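No named ID reversed its sign, but FB-3 minus FB-1 turned from more members called higher (3 against 2 lower) to more called lower (26 against 9 higher) without FB-1 1, and over all IDs the C. azalea Apr minus Mar calls turned from 3.23% higher and 0.727% lower to 1.68% and 2.02% under median-of-ratios scaling. Of 74 counts under other settings, 58 stayed within 1.5 times the reported one. For May minus Mar in C. japonica the calls were 3 with a pseudocount of 0.1, 0 with spring libraries alone, 2 with Feb leaf 1 kept and 14 without the Jan libraries that stand apart, a setting chosen after seeing the data. In C. azalea, Apr minus Mar gave 19 with a pseudocount of 0.1 and 16 with spring libraries alone, May minus Apr 17 with spring libraries alone, and May minus Mar 17 with median-of-ratios scaling, 19 with quantile scaling and 6 with spring libraries alone. The species difference gave 1 with a pseudocount of 0.1, 5 with median-of-ratios scaling, 1 with spring libraries alone and 6 without those Jan libraries. FB-3 minus FB-1 gave 2 with no filter. The IDs with a score above 0 in both species were 1576 with a spring level of 1 TPM. For these counts the cause was not tested.

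With each library left out in turn, calls ranged from 0 to 5 (Apr minus Mar), 0 to 6 (May minus Apr) and 1 to 12 (May minus Mar) in C. japonica, and from 11 to 43, 17 to 41 and 4 to 10 in C. azalea. The range was 0 to 5 for the species difference, 0 to 6 for FB-2 minus FB-1, 0 to 0 for FB-3 minus FB-2 and 1 to 35 for FB-3 minus FB-1. Calls over all IDs moved too. In the same order they ranged from 0 to 60, 1 to 143 and 23 to 448 in C. japonica leaves. In C. azalea they ranged from 338 to 4376, 257 to 1510 and 148 to 353. For the species difference they ranged from 62 to 261, and for the buds from 82 to 499, 0 to 5 and 113 to 4306. The IDs with a score above 0 ranged from 772 without Dec 3 to 1395 without May 1 of C. azalea, and 116 to 150 members were taken again. In all, 66 members were taken in each of the 71 lists, and 61 of them also under both scalings and a pseudocount of 0.1.

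The replicate numbers of C. azalea showed no steady pairing among Mar, Apr and May: deviations from the month mean correlated between -0.50 and 0.52 for libraries with the same number. With 3 libraries per month, this cannot settle whether the numbers mark shared plants. With the replicate number as a block, the calls were 28 for Apr minus Mar, 39 for May minus Apr, 9 for May minus Mar and 3 for the species difference. Of 117 values of named IDs under other settings, 94 kept their call. Depth is unknown from TPM, so low values carry no counting error.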
